A study of Mus musculus with 6 samples.

Results

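The transcription factor genes described here are 3 Krüppel-like factors (Klf2, Klf4 and Klf6) and 4 CCAAT/enhancer-binding proteins (Cebpa, Cebpb, Cebpd and Cebpg). They were chosen as regulators of macrophages, with earlier results of these data known. All 7 were on the array, as 8 of its 16281 features, and every one of the 8 features had a measured ratio on all 6 arrays. RNA came from RAW 264.7 cells, a mouse macrophage line. Treated cells received LPS at 100 ng/ml together with LPS-binding protein at 100 pM for 8 h, and untreated cells were cultured for the same 8 h without either. LPS is the bacterial endotoxin that macrophages sense through Toll-like receptor 4, and LPS-binding protein hands it to the receptor complex. The labels name no genotype or other agent that both groups carried, and they also spell the line 264.4 in 6 of 48 places. RNA of both groups was mixed on each of 6 2-colour arrays, which the labels number as 3 sets. In a set, treated RNA carried the dye Cy5 on 1 array and the dye Cy3 on the other, and these are called Cy5 arrays and Cy3 arrays below. Every value is a log2 ratio of treated over untreated RNA, so that 1 means 2-fold higher in treated cells. The table does not state which dye is the numerator. Cy5 over Cy3 is the likely reading, since the labels give the Cy3 channel as control and the Cy5 channel as test. Every direction below would turn round under the opposite reading. Under the reading used, the cytokine genes Il1b, Il6 and Tnf rose on all 6 arrays, by 3.85, 3.26 and 1.89 on average. They belong to a list of 32 measured genes, described below, of which 19 rose and 3 fell. Under the opposite reading these cytokine genes would be lower in treated cells.

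Krüppel-like factors are zinc finger proteins that bind GC-rich and CACCC sequences. Klf2 is known for keeping monocytes and T cells quiet and for restraining NF-kappaB, Klf4 for monocyte differentiation and alternative macrophage activation, and Klf6 for promoting inflammatory gene expression in macrophages. C/EBP proteins carry a basic region that binds DNA and a leucine zipper through which they pair with each other and with ATF family proteins. Cebpa directs early myeloid differentiation, Cebpb and Cebpd are inducible activators of cytokine and acute-phase genes, and Cebpg lacks an activation domain of its own and acts as a partner of the others.

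Both families held genes that rose and genes that fell in treated cells. Cebpd rose most, to a log2 ratio of 1.89 ± 0.09 (SD, n = 3 sets), and Klf2 fell most, to -1.0 ± 0.06. Klf6 and Cebpb rose by 0.77 ± 0.11 and 0.32 ± 0.02. Cebpa and Klf4 fell by smaller amounts, to -0.31 ± 0.14 and -0.23 ± 0.15, and Cebpg did not pass the test at -0.16 ± 0.09. Thus 3 of the 7 genes rose and 3 fell past a threshold of 0.05 on the adjusted p, which limma gave for the 3 set means with adjustment over all 9192 genes. The same test called 37.9% of all genes, 19.1% higher and 18.8% lower. Among single features 7 of the 8 passed, beside 37.2% of all features. The ratio had 1 sign on all 6 arrays for 5 of the 7 genes, beside 35.2% of all genes. The median size of the ratio, without its sign, was 0.32 over the 7 genes and 0.12 over all genes tested. Because the 7 genes were chosen with earlier results known, these shares and sizes do not test them as a set.

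**Figure D1:**
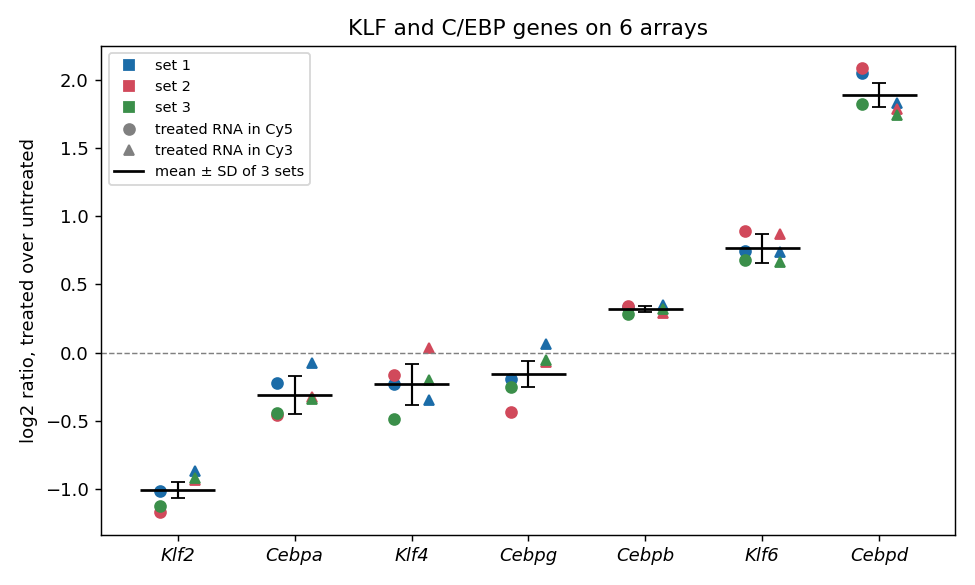
The vertical axis gives the log2 ratio of treated over untreated RNA for each of the 7 genes, ordered from lowest to highest mean. Circles are Cy5 arrays, triangles Cy3 arrays, colours the 3 sets, and black bars the mean ± SD of the 3 set means. Klf2 lies between -1.17 and -0.86 and Cebpd between 1.75 and 2.09, while Cebpg and Klf4 each have 1 array above 0.

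To show what stands before genes that moved in opposite directions, 200 bases upstream of the annotated start are printed for 1 falling and 1 rising gene of each family, Klf2 against Klf6 and Cebpa against Cebpb. Sequences are from RefSeq (GRCm38.p6), which supplied promoters for 6 of the 7 genes, Cebpd being the other. They run 5′ to 3′ on the gene's strand and end at the base before the start. Klf2 is chr8:72318862-72319061 (+), Klf6 chr13:5861289-5861488 (+), Cebpa chr7:35119093-35119292 (+) and Cebpb chr2:167688715-167688914 (+). Capitals mark matches, on either strand, to the TATA box (TATAA), the GC box (GGGCGG), the CCAAT box (CCAAT), the cAMP response element half-site (TGACG), the C/EBP half-site (TTGCG) and the MEF2 site (CTA and TAG with any 4 bases between). These motifs were picked with the sequences in view.
Klf2: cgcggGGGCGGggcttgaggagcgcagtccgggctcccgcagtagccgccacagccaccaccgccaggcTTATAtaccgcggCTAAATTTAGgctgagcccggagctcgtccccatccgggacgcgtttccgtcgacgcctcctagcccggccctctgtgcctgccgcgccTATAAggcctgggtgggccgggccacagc
Klf6: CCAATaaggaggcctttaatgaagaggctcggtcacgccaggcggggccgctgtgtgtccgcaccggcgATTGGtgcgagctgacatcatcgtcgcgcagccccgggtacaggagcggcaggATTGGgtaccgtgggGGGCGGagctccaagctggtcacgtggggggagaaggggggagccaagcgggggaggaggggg
Cebpa: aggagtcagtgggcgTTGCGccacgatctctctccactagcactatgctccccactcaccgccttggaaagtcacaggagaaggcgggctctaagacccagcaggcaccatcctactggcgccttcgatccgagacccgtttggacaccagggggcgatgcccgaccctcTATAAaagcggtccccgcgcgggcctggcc
Cebpb: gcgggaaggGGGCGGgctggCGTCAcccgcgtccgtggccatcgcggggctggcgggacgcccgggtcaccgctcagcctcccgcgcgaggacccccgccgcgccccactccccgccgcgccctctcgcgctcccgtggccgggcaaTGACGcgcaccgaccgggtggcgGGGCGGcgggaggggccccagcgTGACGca

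The 4 windows differed in the motifs they held. The Klf2 window had a MEF2 match that begins 118 bases before the start, a GC box, and TATA matches that begin 131 and 29 bases before it. MEF2 factors are known activators of Klf2 in other cell types. A MEF2 match was present in 2.49% of the 32851 RefSeq windows of the same length, and a TATA match in 18.5%. Because the motifs were picked with the sequences in view, the shares of windows given here do not test the matches. The Klf6 window had 3 CCAAT matches and 1 GC box. The Cebpa window had a TATA match and 1 C/EBP half-site, a kind of match found in 12.4% of all windows. The Cebpb window had 3 cAMP response element half-sites and 2 GC boxes, and 15.7% of all windows held at least 1 such half-site. CCAAT and GC boxes were common, in 29.3% and 31% of windows. None of the marked matches overlapped another in these 4 windows, and the array gives no measurement of what is bound there.

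Klf2 was the falling gene with the clearest separation from 0. On the Cy5 arrays its log2 ratio was -1.01, -1.17 and -1.12 in sets 1 to 3. On the Cy3 arrays it was -0.86, -0.93 and -0.92. All 6 arrays lay on the same side of 0, and the Cy3 arrays were all closer to 0 than the Cy5 arrays. The mean corresponds to a 2.01-fold lower level in treated cells (limma's adjusted p = 3.58e-05). Klf2 stood at rank 42 from the bottom of 9192 genes. It also passed a test against a change of 1.5-fold (adjusted p = 0.00206).

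Klf4, the relative of Klf2 in monocyte differentiation, moved far less. Its log2 ratio was -0.23, -0.17 and -0.49 on the Cy5 arrays, and -0.35, 0.04 and -0.20 on the Cy3 arrays. The Cy3 array of set 2 was the 1 value above 0, and set 2 as a whole averaged -0.06. The mean fall of 1.17-fold had an adjusted p of 0.036, and this call was lost in 5 of 13 alternative analyses. Leaving out set 1 gave an adjusted p of 0.105 and leaving out set 3 one of 0.213. Keeping zeros as values, which changes no value of Klf4 but adds genes to the test, gave 0.0519.

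Klf6 rose on all 6 arrays. It stood at 0.74, 0.89 and 0.68 on the Cy5 arrays, and at 0.74, 0.87 and 0.67 on the Cy3 arrays. The 2 arrays of a set differed by at most 0.0247, while all 6 arrays spanned 0.225. The rise was 1.7-fold (adjusted p = 0.000189), at rank 364 from the top. It did not pass the test against a change of 1.5-fold (adjusted p = 0.168).

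Among the C/EBP genes, Cebpd was the one that changed strongly. Its ratio was 2.05, 2.09 and 1.83 on the Cy5 arrays, against 1.83, 1.79 and 1.75 on the Cy3 arrays. The 6 values spanned 0.34 and lay far above 0. The rise was 3.7-fold (adjusted p = 5.04e-06) and ranked 114th of 9192 genes. It passed the test against a change of 1.5-fold (adjusted p = 1.94e-05).

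Cebpb, the other inducible member, rose by only 1.25-fold, with little spread. It stood at 0.34, 0.34 and 0.28 on the Cy5 arrays, and at 0.35, 0.29 and 0.32 on the Cy3 arrays. All 6 values were above 0 (adjusted p = 0.00208), and the SD of its set means was in the lowest 5.97% of all genes. Cebpb was the single member with more than 1 feature. The feature of accession X62600 averaged 0.31 ± 0.06 and that of AB012278 averaged 0.33 ± 0.02 (SD, n = 3 sets). The 2 features leaned opposite ways between dyes. The first averaged 0.35 on the Cy5 arrays and 0.27 on the Cy3 arrays, the second 0.29 and 0.37.

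Cebpa, the lineage factor of the family, fell on all 6 arrays. Its values were -0.22, -0.45 and -0.44 on the Cy5 arrays, and -0.08, -0.33 and -0.34 on the Cy3 arrays. Set 1 lay closest to 0 in both dye orientations. The mean fall was 1.24-fold (adjusted p = 0.0113). The call was lost without set 3 (adjusted p = 0.0776) and on the Cy3 arrays alone (adjusted p = 0.0845).

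Cebpg, the partner without an activation domain, was the member that did not pass (adjusted p = 0.0628). It passed in 4 of 13 alternatives, with adjusted p of 0.0271 with sets as a replicate block, 0.0277 with 6 separate arrays, 0.0253 on the Cy5 arrays alone and 0.0433 without set 1. It had ratios of -0.19, -0.43 and -0.25 on the Cy5 arrays, against 0.07, -0.07 and -0.06 on the Cy3 arrays. The 2 dye orientations did not overlap. Its mean was -0.29 on the Cy5 arrays and -0.02 on the Cy3 arrays, a difference of -0.27 that did not pass in a test of the dye orientation adjusted over all genes (adjusted p = 0.103). That test called 5.67% of all genes and 0 of the 7 members. The next largest differences between orientations were 0.20 for Cebpd (adjusted p = 0.192) and -0.20 for Klf2 (adjusted p = 0.126).

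**Figure D2:**
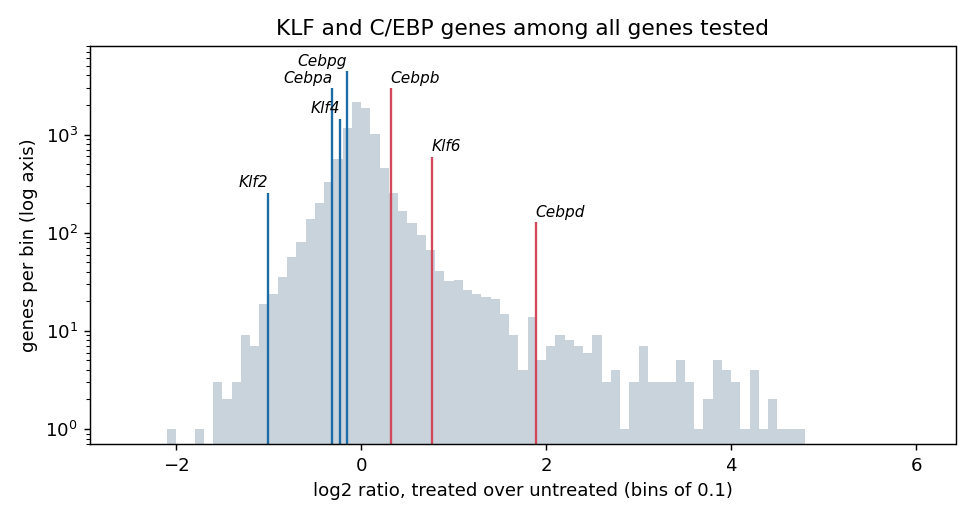
The histogram shows the log2 ratio of treated over untreated RNA for all 9192 genes in bins of 0.1, with the number of genes per bin on a log axis. Lines mark the 7 genes, blue below 0 and red above, and their heights carry no value. Klf2 and Cebpd lie in the tails, at ranks 42 from the bottom and 114 from the top. Nearer the middle are Cebpg, Klf4, Cebpa and Cebpb, from percentile 9.41 (Cebpa) to 89.02 (Cebpb) of the ratio.

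Differences between called members of the same family, which leave out Cebpg, were larger than their spread over sets. Klf2 lay below Klf6 by 1.68, 1.93 and 1.70 on the log2 scale in sets 1 to 3, a mean difference of -1.77 ± 0.14 (SD, n = 3 sets), or 3.41-fold in the treated over untreated ratio. Klf4 lay below Klf6 with a difference of -1.0 ± 0.05, and both genes had their highest value in set 2. Klf2 also lay below Klf4, at -0.77 ± 0.19. Within the C/EBP family, Cebpa minus Cebpd was -2.2 ± 0.12 and Cebpa minus Cebpb was -0.63 ± 0.12. The 2 rising genes were themselves apart, with Cebpd minus Cebpb at 1.57 ± 0.07, or 2.96-fold. Each of these 6 differences had 1 sign on all 6 arrays. For Klf2 against Klf6, and for Cebpa against Cebpb or Cebpd, the genes had opposite signs on every array. The single sign of those differences follows from this and adds no support. An exact two-sided sign-flip permutation test over 3 sets cannot give a p below 0.25, and it gave 0.25 for each of the 6 pairs, also after adjustment over them. These are differences between ratios. The array gives no level, so nothing can be said of which factor is the more abundant.

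The other Krüppel-like and SP zinc finger genes also moved in both directions. Without Sp100, which is described below, 2 of 13 measured genes on that list rose and 5 fell, with a median ratio of 0.0087 beside -0.0079 over all genes. Klf9, a glucocorticoid-induced repressor, fell to -0.51 ± 0.03 (adjusted p = 0.000361), and Klf13 stood at -0.31 ± 0.09. The broadly expressed GC-box factors Sp1 and Sp3 fell to -0.41 ± 0.03 and -0.35 ± 0.07, though Sp3 missed the threshold on the Cy3 arrays alone (adjusted p = 0.051). Klf15 rose to 0.49 ± 0.17 and Klf7 to 0.39 ± 0.12. The list had also held Sp100, an interferon-induced protein of nuclear bodies that shares the letters of the SP family but not its zinc fingers. Sp100 stood at 2.84 ± 0.13, and with it 3 of 14 genes rose. Counting the 3 members, 5 of 12 measured Klf genes fell and 3 rose. Over all genes 18.8% fell and 19.1% rose.

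Genes of related leucine zipper proteins that can pair with C/EBP factors, or share their sites, were higher in treated cells in 7 of 9 measured cases (77.8%) and lower in 0, beside 19.1% and 18.8% of all genes. Their median was 0.62. This list and the other gene lists described here were chosen with earlier results known, so their shares do not test them as sets. Atf3, an inducible regulator of inflammatory genes, rose to 1.96 ± 0.04, close to Cebpd. Batf2 and Batf, which pair with JUN proteins, rose to 1.57 ± 0.15 and 0.89 ± 0.14. Ddit3, a C/EBP homologue that forms dimers with impaired binding to classical C/EBP sites, stood at 1.44 ± 0.12. Cebpg is a known partner of ATF4, whose gene also rose (0.62 ± 0.05).

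**Figure D3:**
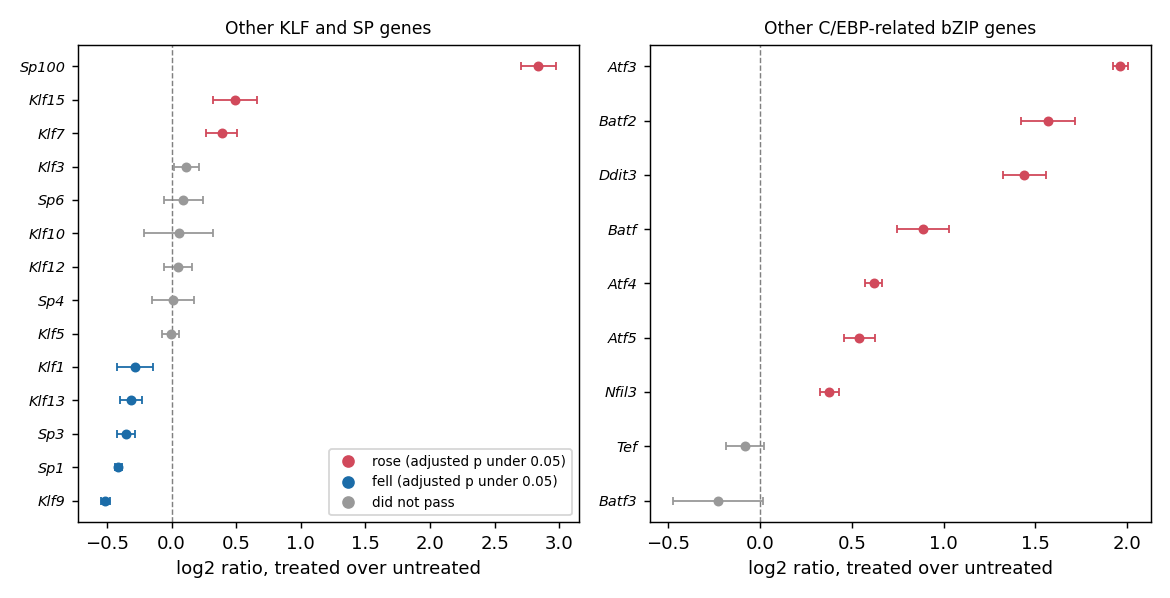
Each point is the mean log2 ratio of treated over untreated RNA of 1 gene with the SD of 3 set means, for other Krüppel-like and SP genes with Sp100 on the left and other C/EBP-related leucine zipper genes on the right. Red genes rose and blue genes fell at an adjusted p under 0.05, and grey genes did not pass. The left list is split, with Klf9 at -0.51 lowest and Sp100 at 2.84 highest, while 7 of the 9 genes on the right are red.

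Genes known to be controlled by C/EBP proteins in myeloid cells were more often higher than lower. Of 32 measured, 19 (59.4%) rose and 3 (9.38%) fell, beside 19.1% and 18.8% of all genes, with a median of 0.40. The list holds many cytokine genes that other LPS-activated factors also control, so it is not specific to C/EBP. Saa3, an acute-phase gene, led at 3.95 ± 0.08. The cytokine gene Il1b followed at 3.85 ± 0.33 over the 2 of its 3 features measured on every array. Csf3, which encodes the granulocyte growth factor, stood at 3.49 ± 0.28 over 1 of its 2 features, at 2.95 with partly measured features kept and at 1.55 with zeros kept as values. Il6 stood at 3.26 ± 0.62. Growth factor receptors of the myeloid lineage on this list did not move together. Csf2ra, a receptor chain for GM-CSF, rose to 0.40 ± 0.04 (adjusted p = 0.00102) on all 6 arrays. Csf3r, the receptor for the Csf3 product and a known Cebpa target, fell to -0.39 ± 0.10 (adjusted p = 0.00224) on all 6 arrays. Csf1r, the macrophage growth factor receptor, stood at -0.19 ± 0.06 (adjusted p = 0.0204), a call lost when any 1 set was left out (adjusted p of 0.0561 to 0.0821). Pla2g2d, a secreted phospholipase gene, had -0.27 ± 0.06, but its call was lost with zeros kept as values (-0.13, adjusted p = 0.0816).

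The list of genes upstream and downstream of KLF2 and KLF4 gave 7 rises (38.9%) and 3 falls (16.7%) among 18 measured genes, at a median of 0.09. Over all genes 19.1% rose and 18.8% fell. Mapk7, the kinase ERK5 that stands upstream of Klf2 in endothelial cells, had a ratio of -0.02 (adjusted p = 0.702). Its activating kinase gene Map2k5 fell to -0.26 ± 0.01 (adjusted p = 0.00448, and 0.0505 without set 3). Mef2c, one of the MEF2 factors, fell to -0.28 ± 0.06 (adjusted p = 0.00489), whereas Mef2a rose to 0.15 ± 0.05 (adjusted p = 0.0447) and Mef2d did not pass at 0.08 ± 0.05 (adjusted p = 0.234). F3, the tissue factor gene that KLF2 represses in endothelium, rose to 1.37 ± 0.22. Cdkn1a, a cell cycle inhibitor that KLF4 activates in other cell types, rose to 1.02 ± 0.06, and Hif1a, the hypoxia factor that KLF2 restrains in myeloid cells, rose to 0.36 ± 0.20. Thbd, the thrombomodulin gene that KLF2 activates in endothelium, stood at 0.08 (adjusted p = 0.261). Kat2b, an acetyltransferase gene, had 0.49 ± 0.09 over 1 of its 2 features and -0.046 over both with zeros kept. Itgb7, a lymphocyte integrin gene, stood at -0.20 ± 0.05 (adjusted p = 0.0168, and 0.151 without set 3).

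**Figure D4:**
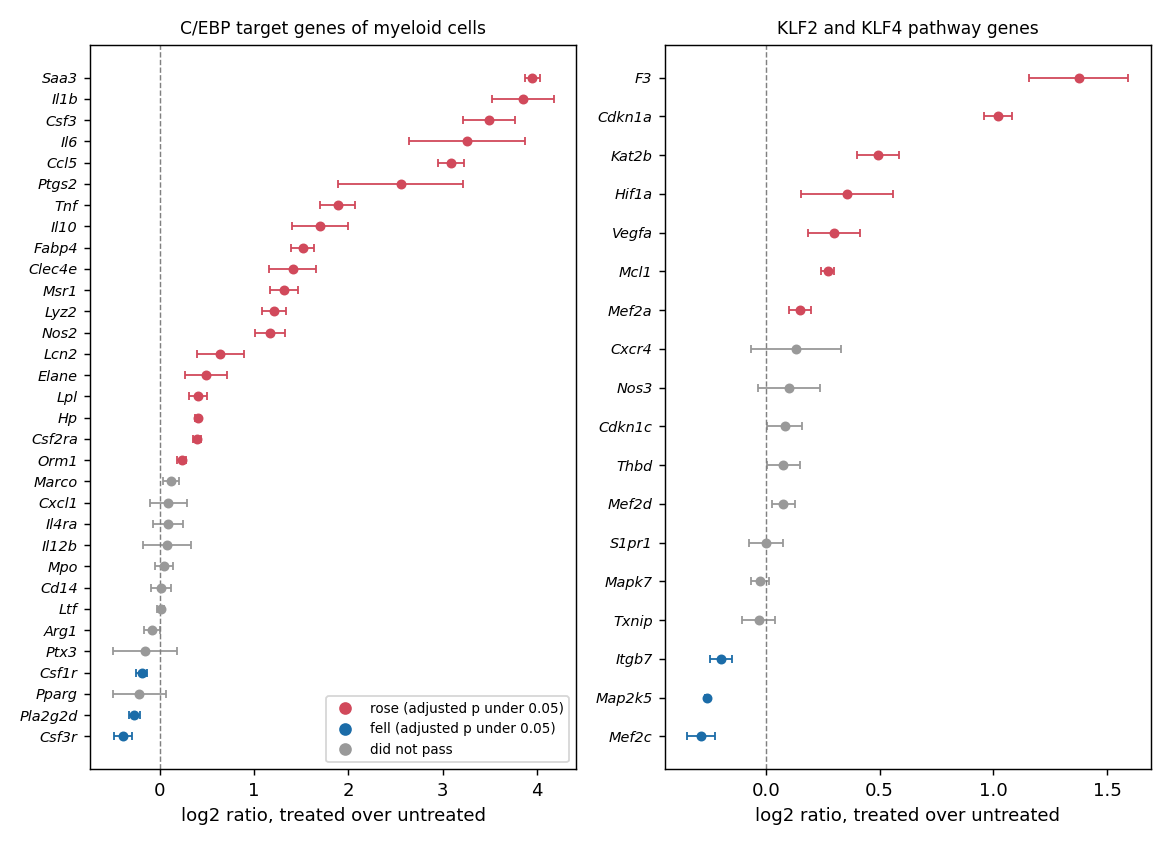
Points give the mean log2 ratio of treated over untreated RNA of each gene with the SD of 3 set means, for C/EBP target genes of myeloid cells on the left and KLF2 and KLF4 pathway genes on the right. Red genes rose, blue genes fell and grey genes did not pass at an adjusted p of 0.05. On the left 19 of 32 genes are red and reach 3.95 at Saa3, and on the right 7 of 18 are red and reach 1.37 at F3.

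Other transcription factors of the macrophage lineage divided as well. Of 25 measured, 11 (44%) rose and 4 (16%) fell, beside 19.1% and 18.8% of all genes, at a median of 0.08. Egr1 and Egr2, early-response factors of monocyte differentiation, rose to 1.98 ± 0.10 and 1.11 ± 0.52. Irf8 and Zeb2, both needed for the monocyte and macrophage lineage, rose to 0.91 ± 0.08 and 0.95 ± 0.05. Beside Id2 at -1.76 ± 0.21, the fall of Id3 to -0.48 ± 0.0017 and of the lysosomal regulator Tfeb to -0.42 ± 0.21 passed the test. Tfeb lost its call on the Cy5 arrays alone (adjusted p = 0.0962). Nr4a1, an early-response nuclear receptor gene, had -0.41 ± 0.16 (adjusted p = 0.00497), but the Cy3 array of set 2 stood at 0.46, against -0.94 to -0.32 on the other 5, and the call was lost with sets as a block (adjusted p = 0.181).

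Ratios cannot show whether a marker is present, so the identity of the cells as macrophages could not be checked from these arrays. Of 8 measured macrophage marker genes, 3 rose and 2 fell, with a median of 0.08 in a range from -0.72 for Fcgr3 to 2.11 for Fcgr1. The shares over all genes were 19.1% higher and 18.8% lower. Lyz2 and Adgre1 rose to 1.21 ± 0.12 and 1.16 ± 0.12, and Csf1r was the other that fell. Fcgr3 stood at -0.075 on the Cy3 array of set 2, against -0.95 to -0.62 on the other 5 arrays, and lost its call on the Cy3 arrays alone (adjusted p = 0.0838). Of 13 marker genes of lymphocytes, granulocytes and stromal cells, 1 rose and 0 fell, in a range from -0.13 to 0.49. The gene that rose was the neutrophil protease gene Elane, at 0.49 ± 0.22 over 2 features and 0.88 in the feature with the larger ratio. The part of these markers in the results above was not tested. In bulk RNA, a change in the number of cells in 1 state and a change in RNA per cell cannot be told apart.

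The genes whose 6 ratios lay closest to those of each called member were found by the root mean square difference over the 6 arrays. For Klf2 they were Mtfp1 (0.0919) and Gmnn (0.105), for Klf4 Ush1c (0.0856) and Cbfa2t3 (0.0916), and for Klf6 Capza2 (0.0464) and Rbpj (0.0563). For Cebpa they were Prr32 (0.0207) and Gtpbp3 (0.057), and for Cebpb 1700094D03Rik (0.0172) and Ptpre (0.0319). Cebpd was closest to Slc31a2 (0.0957) and Atf3 (0.107). On the 6 arrays Atf3 stood at 2.04, 2.17 and 2.03 on the Cy5 arrays and at 1.81, 1.84 and 1.88 on the Cy3 arrays, a range that overlaps that of Cebpd. This likeness rests on the mean ratio and the dye difference of 1 comparison, since the arrays hold no other condition.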

How the data were processed

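The authors deposited 1 log2 ratio for each feature and array, with a median of 0 on each array. Base 2 was inferred because the largest value, 6.64, is log2 of 100. How the arrays were scanned, background-corrected and normalized is not given in the sources used here. No intensities were used, so the number of arrays limits the precision. As deposited, arrays of opposite orientation correlated at r of -0.828 to -0.613 over 12798 features.

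The sign was turned on the 3 arrays whose treated RNA carried Cy3. Values of exactly 0 (8.16% to 13.9% of features per array) were treated as not measured, and the 12798 features without any were kept. Features were named from the platform annotation: 13738 had 1 symbol, 52 several and 2491 none, and 13694 matched RefSeq with 0 symbols changed. Features of a gene were averaged, then both arrays of a set, so that a dye effect cancels in a set mean. Nothing in the labels says that sets were separate cultures, and p-values therefore reflect only the spread between these sets, possibly technical. Set means of 9192 genes were tested against 0 in limma (version 3.58.1, lmFit and eBayes, R version 4.3.3). P-values were adjusted by Benjamini-Hochberg, and calls had an adjusted p under 0.05. The dye orientation was tested on 6 arrays in limma. Turned ratios correlated between arrays at r of 0.653 to 0.91 across genes, which are not independent replicates. The procedure was tested on simulated data.

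Members and gene lists were chosen with earlier results of these data known. Named genes were the members, the 4 largest rises and 4 largest falls among called genes of each list, and the 2 nearest genes to each called member. Atf4, Csf2ra, Mapk7, Mef2a, Mef2d and Thbd were added, and Sp100 was set apart, after their values were seen. Alternatives were the treatment of zeros, the replicate structure, normalization between arrays, each orientation alone, each set left out, the choice of feature and a test against a 1.5-fold change.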

Additional observations from a re-analysis of the deposited data

Results flagged for a closer look

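Among the named genes, 3 gave ratios that differed between the dye orientations in limma's test adjusted over all genes, which called 5.67% of genes. Saa3 averaged 4.27 on the Cy5 arrays and 3.63 on the Cy3 arrays, a difference of 0.65 (adjusted p = 0.042). Fcgr1 averaged 2.32 and 1.9 in the same order, a difference of 0.42 (adjusted p = 0.0469). Pla2g2d averaged -0.49 on the Cy5 arrays and -0.04 on the Cy3 arrays, a difference of -0.45 (adjusted p = 0.0452). None of the 7 KLF and C/EBP genes was among them, and the gap of the outermost array passed Dixon's 95% critical value for 6 arrays in none of the 45 members and list genes named. Wide gaps short of that value were seen in Fcgr3 and Nr4a1, both on the Cy3 array of set 2 (-0.075 and 0.46).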

How the results depend on the processing

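Klf2, Klf6, Cebpb and Cebpd kept their direction and their call in all 13 alternatives that test against 0, while only Klf2 and Cebpd passed against a 1.5-fold change. Their ranges were -1.1 to -0.91, 0.71 to 0.81, 0.31 to 0.33 and 1.79 to 1.99. Klf4 was called in 8 of 13, Cebpa in 11 and Cebpg in 4, all with the same sign. Klf4 lost its call with zeros kept (-0.23, adjusted p = 0.0519) and with zeros missing but partly measured genes kept (-0.23, adjusted p = 0.0597), where more genes are tested. With the Cy3 arrays alone the ratio was -0.17 for Klf4 and -0.25 for Cebpa, neither called, and 1 member was called lower. Without 1 set Klf4 ran from -0.32 to -0.18, Cebpa from -0.39 to -0.27 and Cebpg from -0.20 to -0.11. Cebpg was called at -0.29 with the Cy5 arrays alone, and at -0.16 with 6 separate arrays and a dye term (adjusted p = 0.0277). Leaving out a set left 1 to 3 members called lower and 2113 to 3371 genes called in all (1122 to 1661 higher, 991 to 1710 lower), set 3 giving the fewest. The test against a 1.5-fold change called 418 genes, 335 higher and 83 lower, and 2 members, 1 in each direction. Kat2b turned to -0.046 with zeros kept. The cause of these changes was not tested.

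Same-numbered arrays of opposite orientation deviated together at r of 0.256, 0.212 and 0.0999 in the ratios as deposited, before the sign was turned. By that measure 5 of 6 arrays correlated best with their own number. Arrays of different numbers gave r of -0.297 to 0.112, so the value of set 3 lay within that range. In treated over untreated ratios the same deviations run in opposite ways and partly cancel in a set mean. This lowers the spread between sets on which the p-values rest. The cause of the opposed deviations was not tested. With the set number as a replicate block the count of called genes was 3649, and Cebpg passed at -0.16 (adjusted p = 0.0271). Of 494 values for 38 other genes, 476 kept direction and call and 17 lost the call.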
